A study of Mus musculus with 16 samples.

Results

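Gene expression in the cecal epithelium of mice that carried both Bacteroides thetaiotaomicron and Bifidobacterium longum (Bt/Bl) was compared with that of germ-free mice (GF) on the Mouse 430 2.0 GeneChip. The comparison used the 2 GeneChips labelled bi-associated (numbers 9132 and 9133) and the 2 labelled GF (9128 and 9129), which are 4 of the 8 samples on this type of GeneChip and 4 of the 16 samples of the series. The other samples are mice that carried B. thetaiotaomicron alone (Bt, GeneChips 9130 and 9443) or B. longum alone (Bl, 9134 and 9135), and the same 4 states on a custom GlycoGeneChip. The mice of both states were adult NMRI animals, which the study's methods describe as males, and were fed the same polysaccharide-rich chow. Bt/Bl mice had been colonized for 10 days, GF mice had received no bacteria, and neither group carried an engineered allele. The epithelium was cut out by laser capture microdissection, and RNA from 4 animals of a state was pooled. The 2 GeneChips of a state were duplicate amplifications of that pool. Their spread is therefore technical, each test compares 1 pool with another, and the variation between mice was not measured.

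The lining of the cecum separates the host from the densest community of bacteria in the mouse, and in a germ-free animal it develops without signals from such a community. Epithelial cells answer microbes in part through interferons. An interferon bound to its receptor activates Stat and Irf transcription factors, which enter the nucleus and switch on interferon-stimulated genes through short promoter elements. The products of these genes include the Ifit proteins, which bind foreign RNA, the Oas enzymes, which sense double-stranded RNA, the interferon-inducible GTPases, which attack the membranes around intracellular microbes, and the Schlafen proteins. The same epithelium secretes mucins and antimicrobial lectins and transports ions and water, while the absorption of fat and of bile acids belongs to the small intestine.

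Signals are linear MAS5 values, a measure of brightness that compares the same probe set between GeneChips. Values under a floor of 144.7 were raised to it before the log2 scale was taken, and each gene was represented by its brightest probe set. Differences in parentheses are log2 fold changes of Bt/Bl over GF from limma, with ± for the standard error, and adjusted p-values are corrected over all probe sets tested. Of 12930 genes tested, 18 were called higher in Bt/Bl (0.139%) and 16 lower (0.124%) at an adjusted p under 0.05 in limma, which was fitted to all 8 GeneChips. A gene was counted as at least 2-fold apart where the lower signal of one state exceeded the higher signal of the other by more than 2-fold. By this untested rule 403 genes were higher in Bt/Bl (3.12%) and 323 lower (2.5%). The duplicates did not overlap for 2720 genes that were higher (21%) and 2588 that were lower (20%). At an unadjusted p under 0.05 there were 520 genes higher and 452 lower. All 18 genes called higher and 15 of the 16 called lower were also at least 2-fold apart, the exception being Igha. With the floor raised to the median of all values, 583.1, 14 of the 18 and 6 of the 16 were still called, and without the intensity trend in the model of the spread 0 were called in either direction. The median log2 fold change over all genes was 0.0018, and the duplicates correlated with r = 0.866 in GF and 0.865 in Bt/Bl across the probe sets tested, which are not independent replicates.

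The calls depended on the small number of GeneChips. When each of the 8 was left out in turn, Ifit1, Fabp6 and Apoa1 were called in all 8 fits, and Plet1 was lost only without Bt/Bl GeneChip 9133 (adjusted p = 0.0643). The number of genes called higher fell to 1 without Bt/Bl GeneChip 9133, to 2 without Bt/Bl GeneChip 9132, to 2 without GF GeneChip 9128 and to 5 without GF GeneChip 9129, and the number called lower was 2 in each of these fits. Without 1 of the Bt or Bl GeneChips, which enter through the shared estimate of the spread, 5 to 11 genes were called higher and 2 to 7 lower. No called gene turned its direction in these fits. The log2 fold change of Ifit1 lay between 3.17 and 3.69, whereas wider ranges were found for Eif2s3y (3.02 to 5.08), Plaat3 (1.86 to 3.17), Prss23 (-3.19 to -1.94) and Ttr (-2.85 to -1.64), whose duplicates lay apart in one state. Muc4, Tubb2a, Trim40 and Sptssb among the genes called higher, and Endog, Enpep, F2r, Igha, Itpripl2, Pdzk1, Prss23 and Ttr among those called lower, were called in 0 of the 8 fits. A probe set entered the test where both signals of any state exceeded 583.1, and Plet1 and Eif2s3y passed in the colonized states but not in GF, and Pdzk1 in GF alone, while the other 31 called genes passed in both GF and Bt/Bl. The signals of 15 markers of intestinal epithelium summed to 1739302 and 1608791 on the GF GeneChips and to 1632608 and 1626153 on the Bt/Bl GeneChips. Those of 9 markers of cecal and colonic surface epithelium summed to 1570578 and 1332285 in GF and to 1399341 and 1468793 in Bt/Bl. Epithelium of the large intestine was thus present in both states, while GF also had high signals for some genes of the small intestine, which are given with the lipid genes. The ratio of the signal at the 3′ end to that at the 5′ end, a measure of amplification and RNA integrity, was 5.66 and 7.26 for Gapdh in GF and 15.6 and 12.6 in Bt/Bl, and for Actb, β-actin, it was 36.9 and 38.8 in GF and 32.9 and 26.1 in Bt/Bl.

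**Figure D1:**
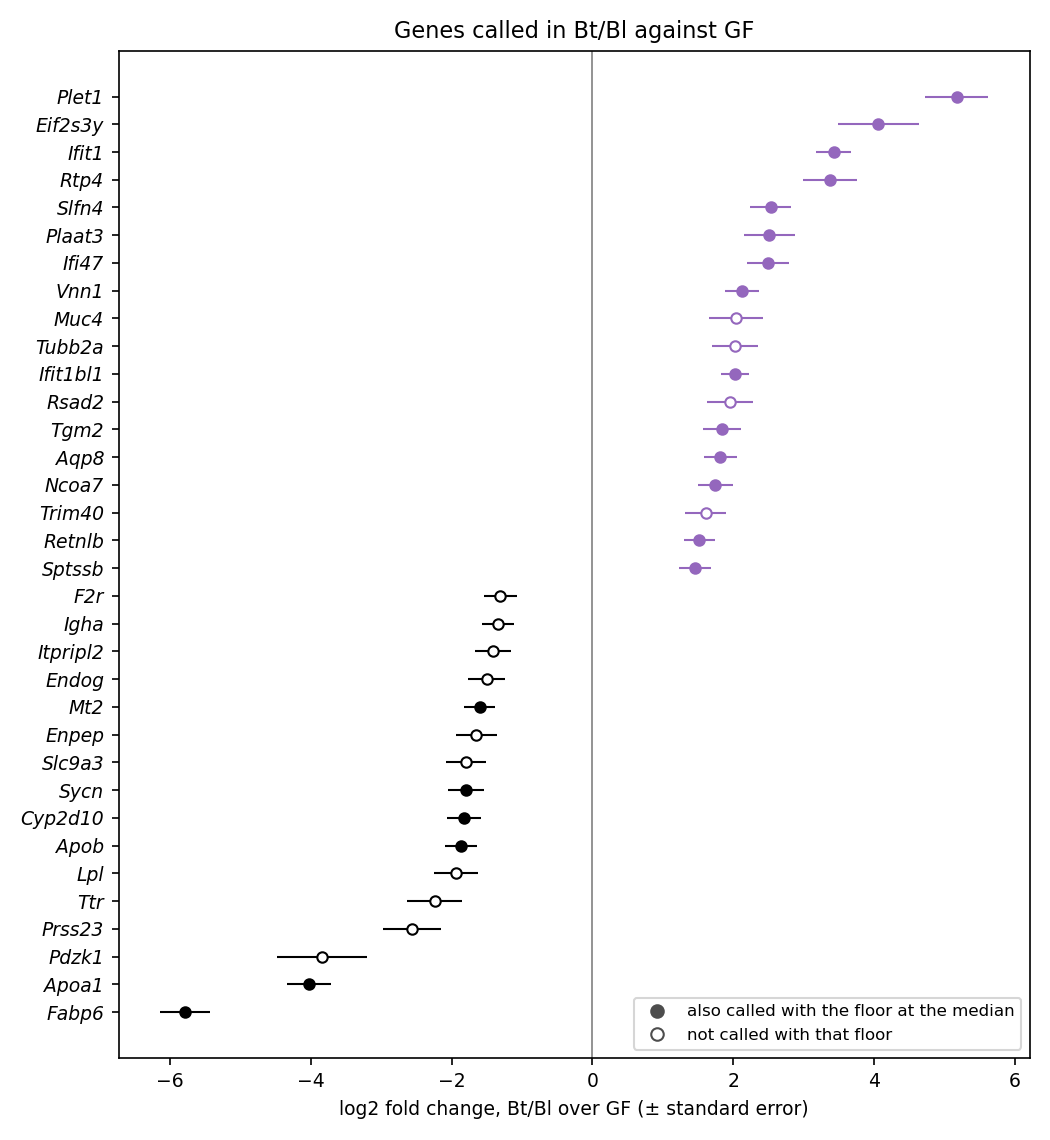
Log2 fold change in Bt/Bl over GF (x axis) for each of the 34 called genes (y axis). Points show the estimate from limma and bars its standard error, and filled points mark the 20 genes that were also called with the floor at the median. Fabp6 at -5.79 and Plet1 at 5.18 lie at the ends.

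Of the 18 genes that rose in Bt/Bl, 6 were interferon-stimulated genes: Ifit1, Ifit1bl1, Slfn4, Rtp4, Ifi47 and Rsad2. The 6 lists of such genes held 105 genes, of which 84 had a named probe set and 67 were tested. Among these 67, 6 were called higher and 0 lower. By comparison, 0.139% of all genes were called higher. Of the 67 genes, 14 were at least 2-fold apart and higher in Bt/Bl and 0 lower, where 3.12% and 2.5% of all genes were. The duplicates did not overlap for 40 genes that were higher and 5 that were lower, where 21% and 20% of all genes were. The median log2 fold change of the 67 genes was 0.60, with 56 genes above 0 and 11 below. For the same genes the median against the same GF GeneChips was 0.15 in Bt and 0.02 in Bl. The lists were drawn up with results of these data known, so these counts describe them and do not test them.

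The Ifit family, whose proteins bind RNA that lacks the marks of the host's own, was higher on both Bt/Bl GeneChips for each of its 5 tested members. The duplicates lay in this way for 21% of all genes, and 2 of the 5 were called. Ifit1 gave signals of 3390.1 and 4845 in GF and 43357 and 44125 in Bt/Bl, so the duplicates were close together and the states far apart. It rose 10.8-fold (3.43 ± 0.25, adjusted p = 4.83e-06), and it had 9757 and 8443 in Bt and 6239 and 6728 in Bl. Ifit1bl1, a paralog on the same chromosome, had 25265 and 27453 in GF and 105547 and 109044 in Bt/Bl and rose 4.07-fold (2.03 ± 0.20, adjusted p = 0.00016). All 4 GeneChips of the single-species states, with 41440.1 and 36600.2 in Bt and 43300 and 40984 in Bl, lay between those of GF and those of Bt/Bl. Ifit2 gave 84.1 and 426 in GF and 5826 and 5739.8 in Bt/Bl, a wide gap that limma did not call (4.54, adjusted p = 0.164) and for which 1 GF value lay under the floor. Ifit3 had 755 and 1148 in GF and 2282 and 1527 in Bt/Bl (adjusted p = 0.86), and Ifit1bl2 had 5714 and 6355 in GF and 9721 and 8944 in Bt/Bl (0.63, adjusted p = 0.542). The probe sets of such similar genes may also bind one another's transcripts, which was not tested.

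**Figure D2:**
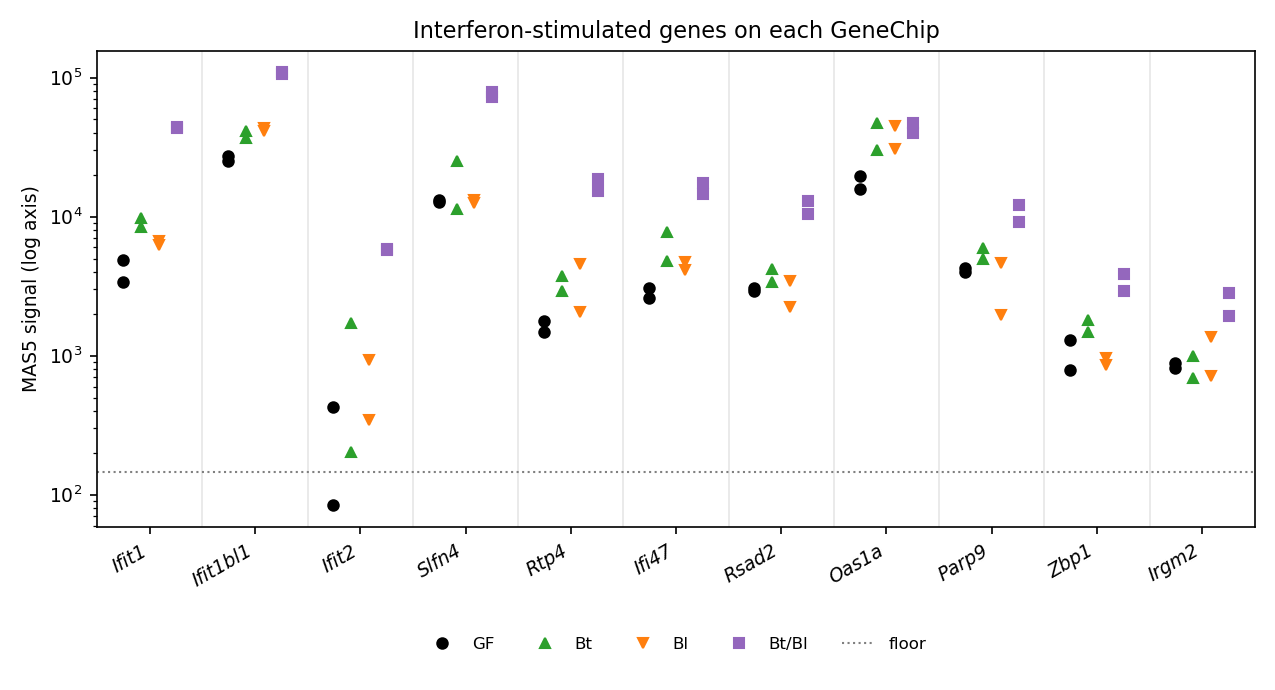
MAS5 signal (y axis, log scale) of 11 interferon-stimulated genes (x axis) on each of the 8 GeneChips, with 2 points for each state and the floor as a dotted line. For Ifit1 the Bt/Bl points are at 43357 and 44125 and every other point is at or below 9757, whereas for Oas1a the Bt, Bl and Bt/Bl points overlap above GF.

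The other 4 genes of these lists that rose belong to several families. Slfn4, a member of the Schlafen family, had 12764 and 13184 in GF and 78811 and 71999 in Bt/Bl and rose 5.81-fold (2.54 ± 0.29, adjusted p = 0.000708). Both Bl GeneChips, with 13119 and 12564, were within the range of GF or just below it. Rtp4, which encodes an interferon-induced receptor transporter protein, had 1473 and 1782 in GF and 18560.2 and 15276 in Bt/Bl and rose 10.4-fold (3.38 ± 0.38, adjusted p = 0.000673). Ifi47, one of the immunity-related GTPases, had 2586 and 3060.2 in GF and 14472 and 17389 in Bt/Bl and rose 5.64-fold (2.50 ± 0.30, adjusted p = 0.00109). Rsad2, which encodes the antiviral enzyme viperin, had 2908 and 3074 in GF and 12983 and 10428 in Bt/Bl and rose 3.89-fold (1.96 ± 0.33, adjusted p = 0.0173). Its dimmer probe sets, of which there were 2, went different ways and were not called, with log2 fold changes of -0.41 (adjusted p = 0.983) and 1.25 (adjusted p = 0.758), and with the floor at the median the call of Rsad2 was lost (adjusted p = 0.0638). For Ifit1, Ifit1bl1, Slfn4, Rtp4, Ifi47 and Rsad2 both Bt/Bl signals exceeded the signals on all 6 other GeneChips.

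None of the other members was called, although several had wide gaps between the states. Among the 9 interferon-inducible GTPases tested, with a median log2 fold change of 1.02 that was 0.57 with the floor at the median and 0.68 without either GF GeneChip, Irgm2 had 820.1 and 886 in GF and 1945 and 2847 in Bt/Bl (1.47, adjusted p = 0.699), Igtp had 2804 and 2509 in GF and 4939.6 and 2488 in Bt/Bl (0.40, adjusted p = 0.922), and Mx1 had 1794 and 1172 in GF and 1881 and 2472 in Bt/Bl (0.57, adjusted p = 0.903). Both Irgm2 signals in Bt/Bl were more than 2-fold above GF, whereas the Igtp signals of the states overlapped. Among the 10 sensors and effectors of double-stranded RNA, with a median of 0.72 that was 0.42 with no filter, Oas1a had 19743 and 15901 in GF and 40022 and 46859.8 in Bt/Bl (1.29, adjusted p = 0.07) and 47424 and 30004 in Bt and 44681 and 30653 in Bl. Oas1a thus had higher signals than GF in every colonized state. Zbp1, a sensor of Z-form nucleic acids, had 794 and 1305 in GF and 2933 and 3856 in Bt/Bl (1.72, adjusted p = 0.472), and Ifih1, a sensor of long double-stranded RNA, had 18072 and 17644 in GF and 34092 and 30254 in Bt/Bl (0.85, adjusted p = 0.404). Of the enzymes that attach or remove the ubiquitin-like protein Isg15, 4 were tested and their median was 1.68, which fell to 0.51 without Bt/Bl GeneChip 9132, to 0.54 with the median probe set of a gene and to 0.79 with no filter. Herc6, the mouse ligase, had 421 and 1480.5 in GF and 5366 and 4459.9 in Bt/Bl (2.63, adjusted p = 0.27), and Usp18, which removes the modifier, had 1010.2 and 60 in GF and 2923 and 1776 in Bt/Bl (2.58, adjusted p = 0.603). The probe set of Isg15 itself is annotated to several symbols and was not used. Parp9 had 3985 and 4260.3 in GF and 12174 and 9138 in Bt/Bl (1.36, adjusted p = 0.307), while Ifi35, a bright member of the lists, had 59702 and 60464 in GF and 83977 and 75992 in Bt/Bl (0.41, adjusted p = 0.767).

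Short promoter elements called ISREs carry the sites at which Stat and Irf factors bind interferon-stimulated genes. The 250 bases before the transcription start were taken from RefSeq annotation of GRCm38.p6 for 4 of these genes, of which Ifit1, Ifit1bl1 and Rsad2 were called and Oas1a was at least 2-fold apart. They are printed 5′ to 3′ on the strand of the gene, ending at the base before the start, and the capitals mark each match to the core, which is GAAA, any 2 bases and GAAA again, or on the other strand TTTC, any 2 bases and TTTC. They are shown because the members that moved together can be compared in the place and number of this element.
Ifit1 (chr19:34640639-34640888, plus strand): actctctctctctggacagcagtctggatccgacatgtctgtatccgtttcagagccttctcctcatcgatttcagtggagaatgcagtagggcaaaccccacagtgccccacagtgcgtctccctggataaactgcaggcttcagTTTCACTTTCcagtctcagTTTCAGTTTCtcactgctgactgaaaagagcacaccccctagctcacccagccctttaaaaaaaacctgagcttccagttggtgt
Ifit1bl1 (chr19:34601969-34602218, minus strand): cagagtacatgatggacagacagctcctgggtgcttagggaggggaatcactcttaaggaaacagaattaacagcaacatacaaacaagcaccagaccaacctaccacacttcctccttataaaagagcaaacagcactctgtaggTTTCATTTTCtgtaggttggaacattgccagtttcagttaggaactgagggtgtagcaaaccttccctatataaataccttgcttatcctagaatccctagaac
Rsad2 (chr12:26456453-26456702, minus strand): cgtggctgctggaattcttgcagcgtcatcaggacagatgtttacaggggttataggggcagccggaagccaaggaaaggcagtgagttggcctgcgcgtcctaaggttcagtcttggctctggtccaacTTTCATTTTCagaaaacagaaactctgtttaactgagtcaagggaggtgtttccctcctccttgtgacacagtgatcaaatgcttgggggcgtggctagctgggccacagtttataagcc
Oas1a (chr5:120907526-120907775, minus strand): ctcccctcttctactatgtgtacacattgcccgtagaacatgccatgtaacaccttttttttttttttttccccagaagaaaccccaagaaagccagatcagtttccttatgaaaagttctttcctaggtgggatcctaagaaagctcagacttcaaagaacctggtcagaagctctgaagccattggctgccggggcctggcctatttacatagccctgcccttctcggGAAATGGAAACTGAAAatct

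Ifit1 held 2 matches, which began 104 and 85 bases before the start. Ifit1bl1 held 1 match at the same distance of 104 bases, and the window of its second annotated start, not printed, held 1 at 23 bases. Rsad2 held 1 at 120 bases, and Oas1a held 2 that overlap, at 20 and 14 bases. A match was present in 2.98% of all 32851 windows of this length and in 3.02% of the 10396 genes tested that had one. Among the genes called higher, 14 had a window and 3 of these (21.4%) held a match, namely Ifit1, Ifit1bl1 and Rsad2. Among the genes called lower, 13 had a window and 0 held a match. Of the 54 tested members of the 6 lists with a window, 19 (35.2%) held a match, and of the 11 that were at least 2-fold apart, 7 (63.6%) did. Over all genes at least 2-fold apart the shares were 13 of 324 (4.01%) for those higher in Bt/Bl and 2 of 242 (0.826%) for those lower. Slfn4 and Ifi47 held none in these windows. A match is a run of letters and not a measured binding site.

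None of the genes upstream of these targets was called. Among 19 interferons, interferon receptors and transcription factors of the pathway, 2 were at least 2-fold apart and higher and 1 lower, where 3.12% and 2.5% of all genes were, and the median log2 fold change was 0.35. Socs3, a feedback inhibitor of Stat3 signalling, had 899.6 and 2151 in GF and 6534 and 5709 in Bt/Bl (2.13, adjusted p = 0.0716) and 14698 and 7905 in Bt and 1628 and 1476 in Bl, so its highest signals were in Bt and those of Bl lay within the range of GF. Stat2, a subunit of the factor that binds ISREs, had 120.3 and 89.3 in GF and 879 and 974 in Bt/Bl (2.68, adjusted p = 0.555), with both GF values under the floor. Ifnb1, interferon-β, went the other way, with 665 and 1262 in GF and 77.4 and 159 in Bt/Bl (-2.59, adjusted p = 0.506). The transcription factors Irf1, Irf7 and Irf9 had log2 fold changes of 0.47 (adjusted p = 0.724), 0.35 (adjusted p = 0.947) and 0.48 (adjusted p = 0.942), and for each of them the duplicates did not overlap. The interferon-γ receptor gene Ifngr1 had 4471 and 5862 in GF and 8823 and 6512 in Bt/Bl (0.57, adjusted p = 0.73).

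The lists for antigen presentation and innate sensing held few large differences. Of 18 genes of MHC class I presentation 0 were called, and their median log2 fold change was 0.23. Psmb8, an immunoproteasome subunit, had 1188 and 724 in GF and 2761 and 3583 in Bt/Bl (1.76, adjusted p = 0.45), and B2m, the light chain of class I molecules, had 81619 and 100736 in GF and 106469.9 and 104762 in Bt/Bl (0.22, adjusted p = 0.913). The median was 0.11 for 9 genes of MHC class II, which ran from -0.40 without GF GeneChip 9128 to 0.64 without GF GeneChip 9129. It was 0.25 for 22 pattern recognition receptors and adaptors, 0.15 for 21 targets of NF-κB and TNF-α, and -0.17 for 24 chemokines and cytokines, and 0 genes were called in any of these 4 lists. Cd14, a co-receptor for lipopolysaccharide, had 6307 and 8955 in GF and 17703 and 16666 in Bt/Bl (1.19, adjusted p = 0.124). Nfkb2, the p100 subunit of NF-κB, had 15665 and 14783 in GF and 34849 and 33407 in Bt/Bl (1.16, adjusted p = 0.403). Ccl25, a chemokine of the small intestine, had 2272 and 1149.6 in GF and 542 and 80.4 in Bt/Bl (-2.53, adjusted p = 0.476), and Ccl6 had 2534 and 1955 in GF and 1967 and 2127 in Bt/Bl (-0.12, adjusted p = 0.989).

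Among 30 antimicrobial and acute-phase genes, 1 was called higher and 0 lower, where 0.139% and 0.124% of all genes were. The median log2 fold change was 0.86, 8 genes were at least 2-fold apart and higher and 1 lower, where 3.12% and 2.5% of all genes were, and 20 were above 0 and 10 below. Retnlb, which encodes the goblet cell protein RELMβ, had 31409 and 34152 in GF and 96333 and 91537 in Bt/Bl and rose 2.87-fold (1.52 ± 0.22, adjusted p = 0.00552). It had 80494 and 89551 in Bt and 75687 and 100721 in Bl, so all 6 GeneChips of colonized mice exceeded GF. Reg3g, a lectin that binds peptidoglycan, had 2437 and 2154 in GF and 7321 and 7842 in Bt/Bl (1.73, adjusted p = 0.225), and its other signals were 16629 and 9676 in Bt and 152 and 33.6 in Bl. Bt/Bl thus lay above GF and below Bt, and Bl lay far below GF. Reg3b, its relative, had 136536 and 151076 in GF and 252956 and 263622 in Bt/Bl by its brightest probe set (0.85, adjusted p = 0.282). A dimmer probe set of Reg3b had 12069 and 15801 in GF and 37781 and 41154 in Bt/Bl and was called (log2 fold change 1.51, standard error 0.24, adjusted p = 0.0114), so the call of Reg3b depends on the probe set. Ang4, a ribonuclease of Paneth and goblet cells, had 3818 and 4280 in GF and 9287 and 8912 in Bt/Bl (1.17, adjusted p = 0.07) and 46895 and 40107 in Bl. Reg4 had 8233 and 8608 in GF and 18399.7 and 18029.8 in Bt/Bl (1.11, adjusted p = 0.0606). Reg3a, the 1 that was at least 2-fold apart and lower, had 952 and 819.5 in GF and 57 and 69.1 in Bt/Bl (-2.61, adjusted p = 0.0756), and its Bt/Bl signals were under the floor. It had 160 and 149.6 in Bt and 83.5 and 42.2 in Bl, so it passed the filter through GF alone. The median of this list was 0.17 with the floor at the median, 0.25 with no filter, 0.09 without GF GeneChip 9129 and 0.33 without Bl GeneChip 9134.

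Plet1 and Muc4 rose as well, each the 1 called member of its list. Plet1, a surface protein known from epithelial progenitor cells, had 365 and 280.5 in GF and 10593 and 12633 in Bt/Bl and rose 36.2-fold (5.18 ± 0.45, adjusted p = 2.57e-05). It had 3140 and 3336 in Bt and 2703 and 1637 in Bl, so that every colonized GeneChip exceeded GF and those of Bt/Bl were highest. Its dimmer probe set had 2434 and 1865 in GF and 1964 and 409 in Bt/Bl (log2 fold change -1.25, adjusted p = 0.861), so the probe sets of Plet1 disagree. Muc4, a mucin anchored in the cell membrane, had 1913 and 1463 in GF and 5938 and 7952 in Bt/Bl and rose 4.11-fold (2.04 ± 0.38, adjusted p = 0.0395). In the 8 fits that left out a GeneChip, none of which called it, its log2 fold change lay between 1.83 and 2.25. The dimmer probe set of Muc4 had 877 and 177 in GF and 644 and 675 in Bt/Bl, which overlapped (log2 fold change 0.74, adjusted p = 0.945). Of 23 mucins and goblet cell products 1 was called, Muc4, and the median was 0.18. Muc2, the main secreted mucin, had 28272 and 30154 in GF and 33935 and 38645 in Bt/Bl (0.31, adjusted p = 0.863) and 89920.5 and 81136 in Bt and 59458 and 37734 in Bl, and Spink4 had 44905 and 43044 in GF and 84331 and 94255 in Bt/Bl (1.02, adjusted p = 0.126). Guca2a, the hormone guanylin, had 230739 and 214754 in GF and 129232 and 127993 in Bt/Bl (-0.79, adjusted p = 0.404), and 209985 and 200845 in Bt and 216611 and 219999 in Bl, so that Bt/Bl was lowest.

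The other genes called higher have varied products. Aqp8, a water channel of the surface epithelium of the large intestine, had 10169 and 14517 in GF and 42879.9 and 42730.3 in Bt/Bl and rose 3.52-fold (1.82 ± 0.23, adjusted p = 0.00207), with 33809.9 and 39872 in Bt and 38596 and 49985 in Bl. Tgm2, a transglutaminase that links proteins, had 35618 and 29057 in GF and 121284 and 109517 in Bt/Bl and rose 3.58-fold (1.84 ± 0.26, adjusted p = 0.00502). Of its other probe sets 2 were called, with log2 fold changes of 2.03 and 2.38, and 2 dimmer ones were not, with 0.92 and 0.26. Vnn1, a pantetheinase and a target of PPARα, had 5024 and 6236 in GF and 24436 and 24425 in Bt/Bl and rose 4.36-fold (2.13 ± 0.25, adjusted p = 0.000788), with 39171 and 32339 in Bt and 6428 and 9519 in Bl. For Aqp8, Tgm2 and Vnn1 the signals of Bt/Bl lay among or below those of a single-species state. Plaat3, a phospholipase and acyltransferase, had 1978 and 4907 in GF and 18083 and 17527 in Bt/Bl and rose 5.71-fold (2.51 ± 0.36, adjusted p = 0.00486), and Sptssb, a small subunit of serine palmitoyltransferase, had 12082 and 15057 in GF and 35449 and 38502 in Bt/Bl and rose 2.74-fold (1.45 ± 0.23, adjusted p = 0.0106). Ncoa7 had 6262 and 6432 in GF and 22933 and 19747 in Bt/Bl and rose 3.35-fold (1.75, adjusted p = 0.00486), Tubb2a, a β-tubulin, rose 4.08-fold (2.03, adjusted p = 0.0135), and Trim40, an intestinal E3 ligase, rose 3.06-fold (1.61, adjusted p = 0.031). The calls of Tubb2a and Trim40 were lost with the floor at the median (adjusted p = 0.104 and 0.156).

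Of the 16 genes that fell, 5 encode proteins of bile acid handling, lipid absorption or lipid transport, among them Fabp6 and Apoa1, which had the largest falls among called genes. Fabp6, the bile acid-binding protein of ileal enterocytes, had 68029 and 95108 in GF and 1179 and 1798 in Bt/Bl and fell 55.2-fold (-5.79 ± 0.36, adjusted p = 1.37e-06). Apoa1, the main protein of high-density lipoprotein, had 33239 and 31104 in GF and 1748 and 2223 in Bt/Bl and fell 16.3-fold (-4.03 ± 0.32, adjusted p = 8.79e-06), and its 3 other probe sets fell as well, with log2 fold changes from -5.27 to -4.23. Apob, the structural protein of chylomicrons, had 86650 and 81167 in GF and 21192 and 25029.5 in Bt/Bl and fell 3.64-fold (-1.86 ± 0.22, adjusted p = 0.000992). For Fabp6, Apoa1 and Apob both Bt/Bl signals were far below both GF signals. Pdzk1, a scaffold for membrane transporters, had 2305 and 1863 in GF and 95 and 38.7 in Bt/Bl, passed the filter through GF alone with both Bt/Bl signals under the floor, and fell at least 14.3-fold (-3.84 ± 0.64, adjusted p = 0.0161). Lpl, lipoprotein lipase, had 9111 and 9731 in GF and 2355 and 2576 in Bt/Bl and fell 3.82-fold (-1.93, adjusted p = 0.0139). These were 4 of the 32 genes of lipid absorption and 1 of the 7 of bile acid handling, where 0.124% of all genes were called lower. Of the 32, 5 were at least 2-fold apart and lower and 2 higher, where 2.5% and 3.12% of all genes were. The median log2 fold change of the 32 was -0.05, and Dgat2, an enzyme of triglyceride synthesis, had 2196 and 4842 in GF and 10559 and 10882 in Bt/Bl (1.72, adjusted p = 0.0595). Slc10a2, the bile acid importer of the ileum, had 860.5 and 2817 in GF and 938 and 635 in Bt/Bl (-1.01, adjusted p = 0.87), while Slc51b, a subunit of the exporter, had 14378 and 14185 in GF and 11238 and 11959 in Bt/Bl (-0.30, adjusted p = 0.877). Ttr, a carrier of thyroid hormone, had 15249.5 and 13592 in GF and 4624 and 2000.5 in Bt/Bl and fell 4.73-fold (-2.24, adjusted p = 0.0232). None of its other probe sets was called, and their log2 fold changes ran from -1.65 to 2.54. The calls of Pdzk1, Lpl and Ttr were lost with the floor at the median (adjusted p = 0.148, 0.0638 and 0.144).

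Many of these genes are markers of the small intestine, and for several it was the GF pool that stood apart. Fabp6 had 1209.5 and 1636 in Bt and 1558 and 1309 in Bl, Apoa1 had 3501 and 3162 in Bt and 1478 and 2047 in Bl, and Pdzk1 had 57.1 and 92.4 in Bt and 76 and 72.8 in Bl, so that the signals of the single-species states were near those of Bt/Bl. Of the 34 called genes, both GF signals lay beyond those of all 6 other GeneChips for 16 of the 18 that rose and 11 of the 16 that fell. Both Bt/Bl signals did so for 12 and 9. These genes were called because GF and Bt/Bl differ, which favours both counts, and the share over all genes was not counted. The counts describe the called genes and test nothing. Among 18 marker genes of ileal and small intestinal enterocytes 4 were called lower (Fabp6, Apoa1, Apob and Enpep) and 0 higher, where 0.124% and 0.139% of all genes were. Of the 18, 6 were at least 2-fold apart and lower and 1 higher, where 2.5% and 3.12% of all genes were, and 13 were below 0 and 5 above. Their median log2 fold change was -0.80, or -0.37 without Bt/Bl GeneChip 9132. The sum of their signals was 958621 and 846431 in GF, 745681 and 770065 in Bt/Bl, and 834166 and 776124 in Bt. In Bl it was 1181092 and 934937, so 1 Bl GeneChip had the highest sum and the other lay within the range of GF. Fabp2, the brightest of them, had 647554 and 505160.5 in GF and 595949.8 and 628471 in Bt/Bl (0.10, adjusted p = 0.994). The part that small intestinal epithelium in the GF pool may have in these falls was not tested.

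The GF pool also differed in sex-linked transcripts. Eif2s3y is Y-linked and had 71.3 and 614 in GF and 5657 and 4401 in Bt/Bl and was called higher by 16.7-fold with 1 GF signal under the floor (4.06 ± 0.58, adjusted p = 0.00486), with 5056 and 4310.4 in Bt and 3201 and 4872 in Bl, while the value for its dimmer probe set was 0.03 on the same scale. Kdm5d, which is Y-linked too, had 178 and 301 in GF and 1159.5 and 1097 in Bt/Bl (2.28, adjusted p = 0.632). It had 867.6 and 145.2 in Bt and 1036.2 and 1039.8 in Bl, so 1 Bt signal lay below both GF signals. The other probe set of Kdm5d had a log2 fold change of 0.57. Xist, which coats the inactive X, had 17157 and 22762 in GF and 7541 and 11176 in Bt/Bl (-1.11, adjusted p = 0.225), and its signals were well above the floor on all 8 GeneChips although the methods describe males. A difference in the animals that made up the pools and an effect of colonization cannot be told apart here, because both GF GeneChips came from the same pool.

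**Figure D3:**
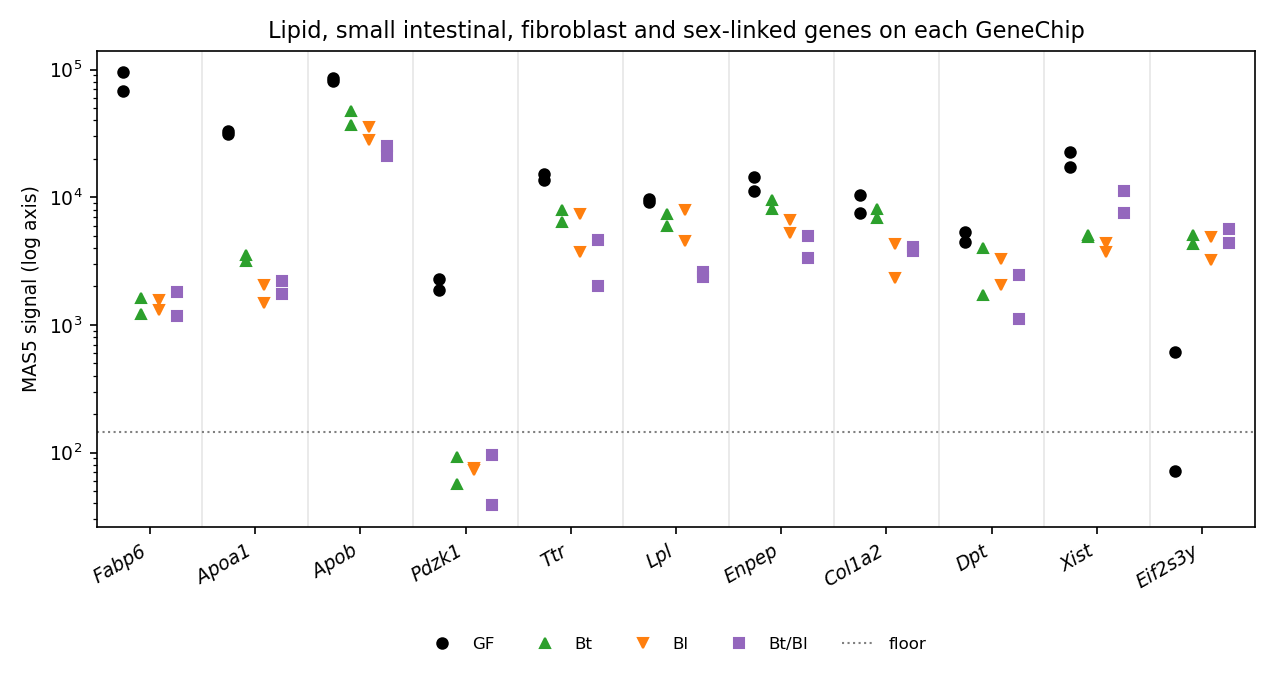
MAS5 signal (y axis, log scale) of 11 genes of lipid handling, small intestine, fibroblasts and the sex chromosomes (x axis) on each of the 8 GeneChips, with 2 points for each state and the floor as a dotted line. Fabp6, Apoa1, Pdzk1 and Xist are highest and Eif2s3y is lowest on the GF GeneChips.

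Fibroblast markers had lower signals in Bt/Bl for nearly the whole list. Of 14 tested, 13 had duplicates that did not overlap and were lower, where 20% of all genes were, 0 were called, and the median log2 fold change was -0.95. Their summed signal was 119073 and 118006 in GF, 61068 and 59121 in Bt/Bl, 93405 and 85722 in Bt, and 51748 and 44067 in Bl. Adamdec1, a protease of the lamina propria, had 51699 and 59602 in GF and 26266 and 26316 in Bt/Bl (-1.08, adjusted p = 0.0644), Col1a2 had 10335 and 7546 in GF and 3761 and 4091 in Bt/Bl (-1.17, adjusted p = 0.356), and Dpt had 5338 and 4489.8 in GF and 2482 and 1122 in Bt/Bl (-1.55, adjusted p = 0.446). Lum was the member above 0, with 618 and 43 in GF and 628 and 1067 in Bt/Bl (1.45, adjusted p = 0.864). Fewer cells of a type and less RNA in each cell cannot be told apart in such samples.

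Several genes called lower have products known from cells of the lamina propria or from secretory cells. Igha, the heavy chain of immunoglobulin A, had 113964 and 95694 in GF and 49896 and 34067 in Bt/Bl and fell 2.53-fold (-1.34 ± 0.23, adjusted p = 0.0202), with 12171 and 13109.6 in Bt and 25565 and 27712 in Bl, so GF was highest and Bt lowest. Jchain, which joins IgA molecules, had 9551 and 11759 in GF and 6182 and 5885 in Bt/Bl (-0.81, adjusted p = 0.727), and Pigr, which carries IgA across the epithelium, had 271856 and 238814 in GF and 199946 and 202218 in Bt/Bl (-0.34, adjusted p = 0.887). The 8 tested markers of B lymphocytes and plasma cells summed to 183909 and 159877 in GF and to 115508 and 99258.7 in Bt/Bl. Igha is among them and made up the larger part of the GF sums, so the sums largely repeat its fall. The median log2 fold change of the 8 was -0.26, or -0.05 without Bt/Bl GeneChip 9132, with 2 above 0 and 6 below. F2r, the thrombin receptor, had 35582 and 39364 in GF and 17072 and 13432 in Bt/Bl and fell 2.47-fold (-1.31, adjusted p = 0.0325), and Prss23, a serine protease, had 9309 and 22209 in GF and 2851 and 2076 in Bt/Bl and fell 5.91-fold (-2.56, adjusted p = 0.0133). Sycn, syncollin, a protein of secretory granules, had 30119 and 31117 in GF and 8511 and 9100.3 in Bt/Bl and fell 3.48-fold (-1.80, adjusted p = 0.00486). The part that fibroblasts and plasma cells in the pools may have in these calls was not tested. Markers of other immune cells had low signals, with sums of 21362 and 18565 in GF and 20738 and 16476 in Bt/Bl for 13 macrophage and dendritic cell genes, and of 8686 and 4799 in GF and 6379 and 5602 in Bt/Bl for 8 T and NK cell genes. In both lists the groups overlapped. The 3 neutrophil genes tested summed to 997 and 1968 in GF and to 2481 and 4342 in Bt/Bl, which did not overlap, with 2342 and 3770 in Bt and 2492 and 814 in Bl.

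Most of the other genes that fell serve absorption or detoxification. Slc9a3, the sodium-proton exchanger of the brush border, had 28279 and 23817 in GF and 6844 and 8193 in Bt/Bl and fell 3.47-fold (-1.79 ± 0.29, adjusted p = 0.0122). It was 1 of 47 genes of water and ion transport, among which Aqp8 rose and the median was -0.03. Slc26a3, the chloride exchanger, had 420244 and 396139.8 in GF and 357066 and 357893 in Bt/Bl (-0.19, adjusted p = 0.955). Enpep, aminopeptidase A of the brush border, had 11218 and 14539 in GF and 4960 and 3348 in Bt/Bl and fell 3.13-fold (-1.65, adjusted p = 0.0237). Of 21 brush border genes 16 were below 0 and the median was -0.17. Slc7a9, a transporter of cystine and basic amino acids, had 4351 and 4290 in GF and 749.5 and 1009 in Bt/Bl (-2.31, adjusted p = 0.0563), and Naaladl1, a brush border peptidase, had 2275 and 3252 in GF and 59.5 and 108 in Bt/Bl (-4.23, adjusted p = 0.174). Both Bt/Bl signals of Naaladl1 were under the floor.

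Cyp2d10, a cytochrome P450, had 55802 and 53143 in GF and 13528 and 17448 in Bt/Bl and fell 3.54-fold (-1.83 ± 0.24, adjusted p = 0.00218), and it had 75833 and 53648 in Bt and 41224 and 32410.1 in Bl. The single-species signals were thus all at least 32410, and those of Bt/Bl at most 17448. Of 30 cytochrome P450 genes 1 was called lower, where 0.124% of all genes were, the duplicates did not overlap for 13 that were lower and 3 that were higher, where 20% and 21% of all genes were, and the median was -0.33. Cyp1a1, a target of the aryl hydrocarbon receptor, had 3051 and 3110.2 in GF and 762 and 990 in Bt/Bl (-1.83, adjusted p = 0.535). Among 60 enzymes of conjugation and detoxification 0 were called and the median was -0.20, and Aldh1a1, which oxidizes retinal, had 267907 and 234061 in GF and 135014 and 111593 in Bt/Bl (-1.03, adjusted p = 0.274). Mt2, a metallothionein, had 23909 and 25204 in GF and 8419 and 7758 in Bt/Bl and fell 3.04-fold (-1.60 ± 0.22, adjusted p = 0.00445), while Mt1 had 47619.7 and 61014 in GF and 29051 and 37512 in Bt/Bl (-0.71, adjusted p = 0.538). Endog, a nuclease of mitochondria, fell 2.83-fold (-1.50, adjusted p = 0.0242), and Itpripl2 fell 2.65-fold (-1.41, adjusted p = 0.0338). With the floor at the median the calls of Endog and Itpripl2 were lost, as were those of Slc9a3, Enpep, Igha, F2r and Prss23.

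Genes of cell division had a median above that of all genes, without a single call. Of 56 genes of the cell cycle and DNA replication 0 were called, 45 were above 0 and 11 below, and the median log2 fold change was 0.66, against 0.33 for the same genes in Bt and 0.06 in Bl. The duplicates did not overlap for 27 that were higher and 3 that were lower, where 21% and 20% of all genes were. Mki67, a marker of dividing cells, had 6522 and 6744 in GF and 21106 and 9373 in Bt/Bl (1.08, adjusted p = 0.397), Top2a, a topoisomerase of chromosome segregation, had 4606 and 4644 in GF and 9349 and 8156 in Bt/Bl (0.92, adjusted p = 0.528), and Ccnb2, a mitotic cyclin, had 714 and 937 in GF and 3559.9 and 2776 in Bt/Bl (1.94, adjusted p = 0.364). Bub1, of the spindle checkpoint, had 104 and 30.9 in GF and 1039 and 913 in Bt/Bl (2.75, adjusted p = 0.471) with both GF signals under the floor. Pcna, the sliding clamp of DNA replication, had 6259.9 and 7647 in GF and 8505 and 7639 in Bt/Bl (0.22, adjusted p = 0.938), and its groups overlapped. Of 18 stem and progenitor genes Plet1 was the 1 called, the median was 0.20, and Cdca7 had 125 and 115 in GF and 1314 and 1244 in Bt/Bl (3.14, adjusted p = 0.0543) and 122 and 147 in Bt and 209.9 and 96.3 in Bl, so that both GF signals were under the floor and it passed the filter through Bt/Bl alone.

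Genes of mitochondrial respiration had a median below that of all genes, by a small amount. Of 68 genes of oxidative phosphorylation and the citric acid cycle 0 were called or at least 2-fold apart, 57 were below 0 and 11 above, and the median log2 fold change was -0.21. The duplicates did not overlap for 38 that were lower, where 20% of all genes were, and for 0 that were higher. Ndufb10, a subunit of complex I, had 38355 and 42127 in GF and 26408 and 26284 in Bt/Bl (-0.61, adjusted p = 0.515), Sdhb, of complex II, had 155960.1 and 151139.7 in GF and 131528 and 121923 in Bt/Bl (-0.28, adjusted p = 0.882), and Cs, citrate synthase, had 116704 and 112788 in GF and 95947 and 98312 in Bt/Bl (-0.24, adjusted p = 0.893). Atp5b, a subunit of ATP synthase, had overlapping signals of 10767 and 15100.4 in GF and 14494 and 12531 in Bt/Bl. The median of the list was -0.15 with quantile normalization and -0.26 with median scaling.

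**Figure D4:**
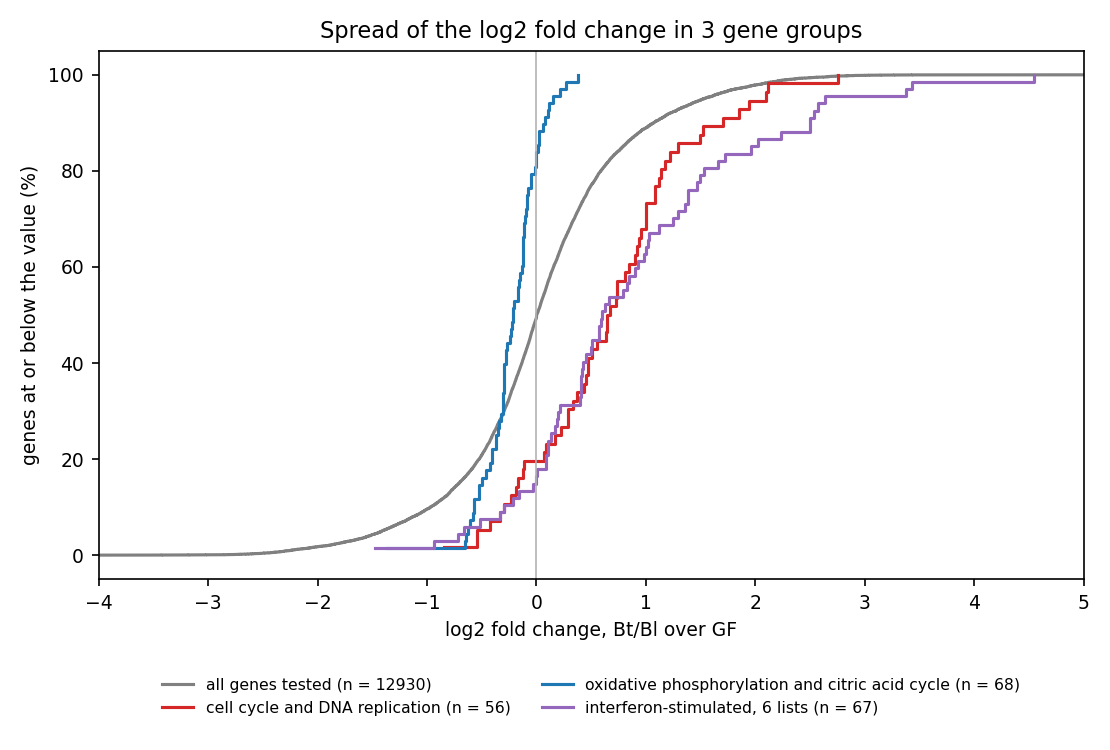
Share of genes (y axis, %) at or below each log2 fold change in Bt/Bl over GF (x axis, drawn from -4 to 5) for all 12930 genes tested and for 3 gene groups. The curve of 67 interferon-stimulated genes and that of 56 cell cycle genes lie to the right of that of all genes, with medians of 0.60 and 0.66, and the curve of 68 respiratory genes is steep around its median of -0.21.

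Other functional groups held few calls. The median log2 fold change was 0.02 for 35 targets of PPAR, among which Vnn1 was called, -0.19 for 34 genes of cholesterol and fatty acid synthesis, -0.02 for 20 of glycolysis, 0.07 for 31 of tight junctions and adhesion, and -0.13 for 35 ribosomal proteins. Farther from the median of all genes, and without a call, were 19 enteroendocrine products at -0.37, which came to 0.37 without Bt/Bl GeneChip 9133, and 7 tuft cell genes at 0.37, which came to -0.08 without GF GeneChip 9128. Of 17 genes of the circadian clock 14 were above 0, 0 were called, and the median was 0.34. Dbp, a transcription factor of clock output, had 3002 and 3863 in GF and 9300 and 8142 in Bt/Bl (1.35, adjusted p = 0.07) and 29501 and 18554 in Bt and 18078 and 14120.3 in Bl, so Bt/Bl lay between GF and both single-species states. The list of gasdermins and cell death genes, which also held the E3 ligase Trim40, had 20 genes tested. Trim40 was the 1 called, where 0.139% of all genes were called higher. The median of the list was 0.40, or 0.11 without GF GeneChip 9128 and 0.13 without GF GeneChip 9129. The pore-forming gasdermin Gsdmc2 had 53739 and 50192 in GF and 101718 and 89330.3 in Bt/Bl (0.88, adjusted p = 0.356). Ada, adenosine deaminase, had 1304 and 1232 in GF and 3718 and 3054 in Bt/Bl (1.41, adjusted p = 0.404), Klk1, a tissue kallikrein, had 6134 and 3870.2 in GF and 5830.1 and 8555 in Bt/Bl (0.54, adjusted p = 0.89), Pnliprp2, a lipase, had 1199.8 and 568 in GF and 1277 and 597 in Bt/Bl (0.08, adjusted p = 1), and Fabp1, a fatty acid-binding protein, had 40.9 and 522 in GF and 500 and 516 in Bt/Bl (0.89, adjusted p = 0.924). For Fabp1, 1 GF signal was under the floor. Its other probe set went the other way, with 744 and 700.3 in GF and 166.2 and 769.3 in Bt/Bl (-1.01).

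**Figure D5:**
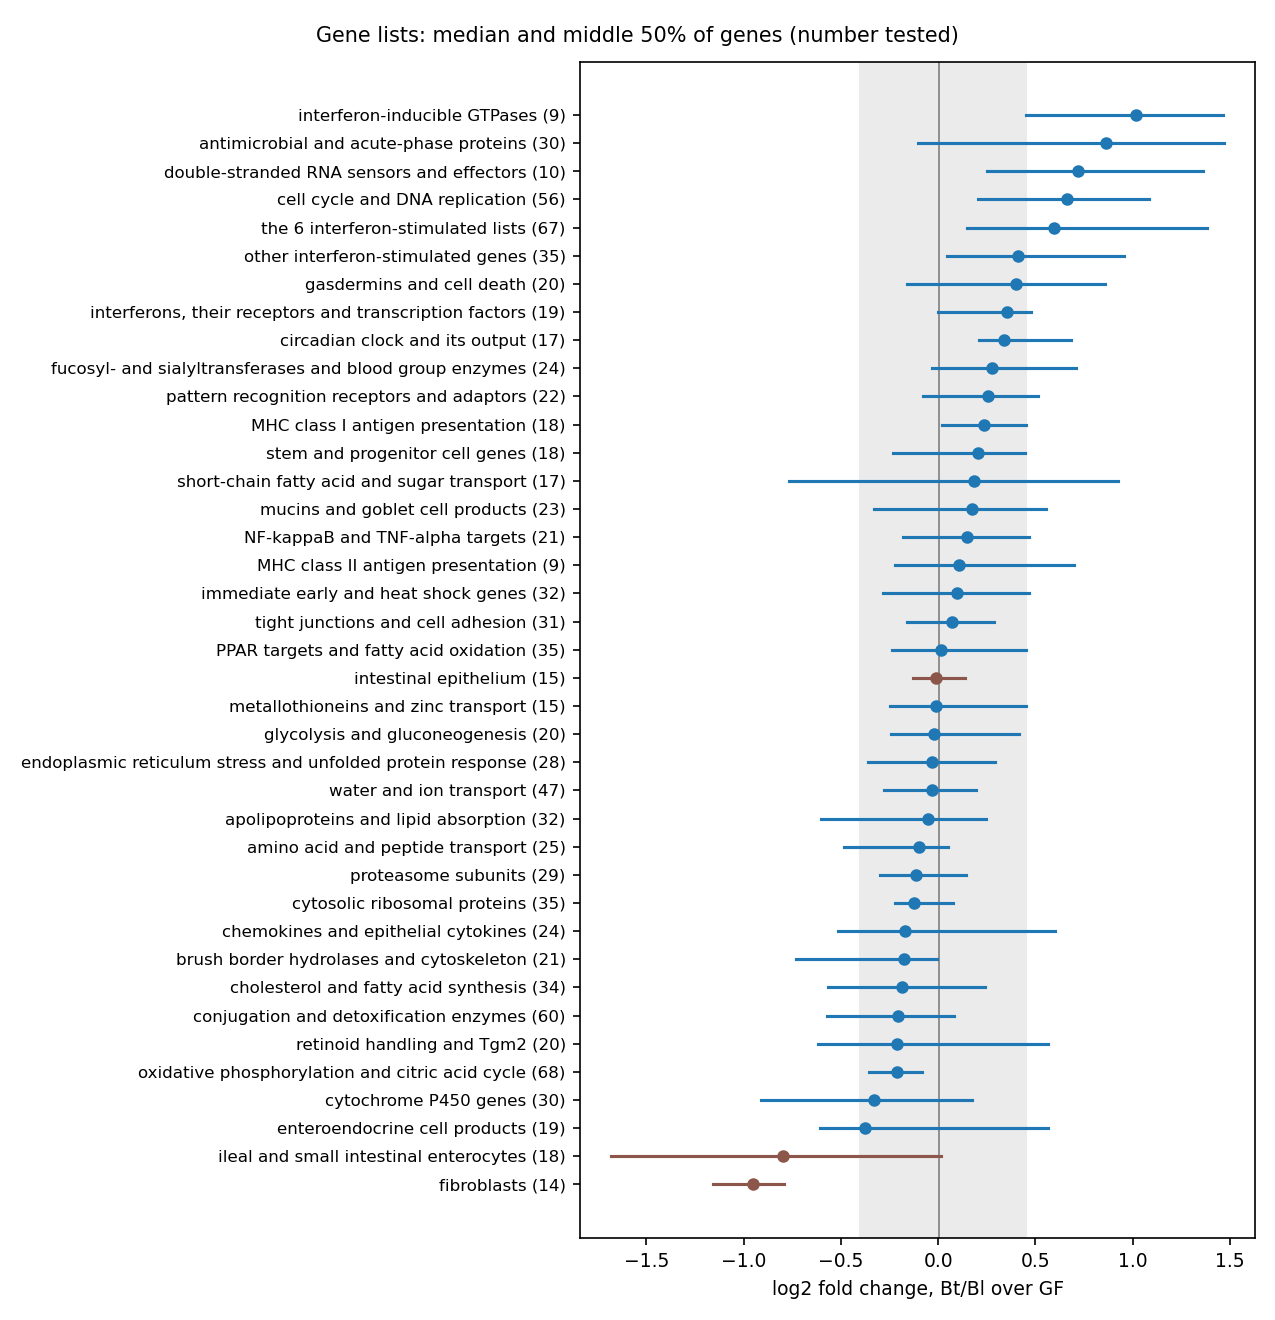
Median (points) and interquartile range (bars) of the log2 fold change in Bt/Bl over GF (x axis) for gene lists (y axis, number tested in brackets). Functional lists with at least 9 genes tested are in blue. The marker lists of intestinal epithelium, of ileal and small intestinal enterocytes and of fibroblasts are in brown, and other marker lists are not drawn. The grey band and line give the same for all genes tested, and interferon-inducible GTPases at 1.02 and fibroblast markers at -0.95 lie at the ends.

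The custom GlycoGeneChip, which carries 708 mouse probe sets, was hybridized with RNA of the same states and gives values for some of these genes, without a test. It had 12 probe sets with signals above its median whose genes were at least 2-fold apart on the Mouse 430 2.0, and none of these genes was called there. Of the 12, 7 had a difference of the same direction on both types of GeneChip and 5 of the opposite direction (Il1a, Il5ra, Pdgfrb, Selp and Selplg), so the types of GeneChip disagreed for these 5. The direction is the sign alone, whatever the size. On the GlycoGeneChip the groups overlapped for B3galt2, Ccl25, Gpc6 (-0.02) and Itgax among the 7 and for Il5ra among the 5. Its 2 probe sets for Reg3b had 2611 and 3912 in GF and 12641 and 15209 in Bt/Bl, and 44347 and 57740 in GF and 110988 and 123018 in Bt/Bl. Both had log2 differences above 1, at 2.12 and 1.21. For Ifngr1 the 2 probe sets had 5631 and 7385 in GF and 12809 and 15256 in Bt/Bl, and 87696 and 112112 in GF and 146314 and 118347 in Bt/Bl. For Ccl25 its brighter probe set had 2057 and 2723 in GF and 700.2 and 2360 in Bt/Bl, where the groups overlapped. For the fibroblast marker Pdgfrb its brighter probe set had 302.9 and 224.5 in GF and 2430.3 and 1126.6 in Bt/Bl, the opposite direction to the Mouse 430 2.0, and 1 of these GF signals was under the GlycoGeneChip's floor of 268.1. On the Mouse 430 2.0 Pdgfrb had 668 and 672 in GF and 84.1 and 48.1 in Bt/Bl (-2.21, adjusted p = 0.514). The fibroblast marker Dcn had 2905 and 1461 in GF and 2104 and 1569 in Bt/Bl by its brighter probe set on the GlycoGeneChip, which overlapped, against -0.80 on the log2 scale on the Mouse 430 2.0. Signals of the 2 types of GeneChip are on different scales, and levels were not compared between them.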

How the data were processed

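Laser-captured cecal epithelium of GF, Bt, Bl and Bt/Bl mice was measured on 2 Mouse 430 2.0 GeneChips per state. The authors computed the deposited signal values with MAS5 and scaled each GeneChip to a common mean. The values are linear and came without detection calls, and the number of GeneChips limits their precision. The authors' own comparisons with dChip were not used. Values under the 25th percentile (144.7) were raised to it, and a probe set was kept where both GeneChips of any state exceeded the median of the table (583.1). Counts over a list are therefore over members that passed, and a gene that passed only through 1 state had to be high there. This left 24865 of 45101 probe sets after control probe sets were set aside. Log2 signals were fitted with limma 3.58.1 in R 4.3.3 on all 8 GeneChips (4 residual degrees of freedom, empirical Bayes with an intensity trend), with Benjamini-Hochberg adjustment and a threshold of 0.05. Gene symbols came from the platform annotation, in which 34958 probe sets carry 1 symbol, 932 several and 9211 none, and 59 symbols were updated. A gene was taken from its brightest probe set.

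The 15 largest rises and the 15 largest falls among called genes were to be named, with as many as 6 called members per list and as many as 4 others by size of log2 fold change, genes that define a list, and the genes the study names for the epithelium. In the event all called genes were named, and other bright or well-known members were chosen after their values were seen. The comparison, its genes and the lists were chosen with earlier results of these data known. Alternatives were quantile normalization, median scaling, other floors and filters, no trend, a fit on the 4 GeneChips alone, the median probe set of a gene, and leaving out each GeneChip. Promoter windows came from RefSeq (GRCm38.p6). The GlycoGeneChip was used for description only.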

Additional observations from a re-analysis of the deposited data

How the results depend on the processing

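The direction of the called genes held better than their number. The named genes counted next were the called genes and some uncalled genes that the study names, such as Reg3g and Zbp1. For the uncalled genes, staying uncalled counted as kept, so the 412 values are not all from called genes. The 333 values are all from called genes. Across the alternatives, 412 values of single named genes kept direction and side of the threshold, 333 kept direction and were no longer called, 2 became called and 1 turned its direction, Plet1 with its median probe set, at -1.25. Of the medians of the other lists, 595 moved by less than the spread between duplicates and 270 by more, and the filter at the 75th percentile left 2 marker lists, those of enteric glia and of mast cells, without a value. The number of genes called higher was 6 with median scaling, 3 with no filter, 0 without the intensity trend and 11 with the median probe set, and the number called lower was 3 with median scaling, 6 with the floor at the median, 2 with no filter and 0 without the trend. Of the interferon-stimulated genes 2 were called with no filter and 0 without the trend. Genes at least 2-fold apart numbered 95 higher and 72 lower with the floor at the median, and 94 and 74 with the filter at the 75th percentile. The cause of these changes was not tested.

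Leaving out 1 GeneChip in turn gave 1 to 11 genes called higher, 2 to 7 called lower and 1 to 5 interferon-stimulated genes called. The lone GeneChip of a state was then assumed to vary like the other states. The genes at least 2-fold apart numbered 432 to 1278 higher and 350 to 1422 lower, since the rule is easier to meet with 1 GeneChip in a state. The median over all genes stayed within 0.1 of 0 except at 0.105 without Bt/Bl GeneChip 9132 and -0.129 without GF GeneChip 9129. List medians ranged from 0.42 to 0.71 for the interferon-stimulated genes, from 0.090 to 0.88 for the antimicrobial genes, from 0.52 to 0.76 for the cell cycle, from -0.23 to -0.21 for respiration, from -0.88 to -0.37 for small intestinal markers and from -1.03 to -0.83 for fibroblast markers. The lowest values for the first pair of lists came without GF GeneChip 9129.

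Quantile normalization gave medians of 1.02 for the antimicrobial genes, -0.15 for respiration and -0.91 for fibroblast markers. Median scaling gave 0.55 for the interferon-stimulated genes, 0.59 for the cell cycle, -0.26 for respiration and -1.003 for fibroblast markers. The floor at the median gave 0.17 for the antimicrobial genes, 0.46 for the cell cycle, -0.40 for small intestinal markers and -0.82 for fibroblast markers. No filter gave 0.47 for the interferon-stimulated genes, 0.25 for the antimicrobial genes, -0.59 for small intestinal markers and -0.83 for fibroblast markers. The filter at the 75th percentile gave 0.81 for the interferon-stimulated genes and -1.65 for small intestinal markers, and the fit on 4 GeneChips gave 0.93 for the antimicrobial genes. The median probe set gave 0.60 for the antimicrobial genes, 0.45 for the cell cycle, -0.24 for respiration, -1.16 for small intestinal markers and -0.82 for fibroblast markers. No paired analysis was possible because the replicate numbers are GeneChip numbers, which no 2 states share.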
